A study of Mus musculus with 6 samples.

Results

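All 6 libraries of an EZH2 RIP-seq experiment in mouse hearts were compared here by antibody, anti-EZH2 against normal IgG, with the libraries paired by heart group (3 pairs). RNA immune-precipitation (RIP) sequencing reads the RNAs that come down from a lysate with an antibody against a protein, caught on beads, and normal IgG gives the RNAs that come down without an antibody against that protein. An RNA was a member when its FPKM (fragments per length of transcript and per depth of the library) was above 1 in all 6 libraries, which 4846 of 46072 genes were. For each gene the FPKM with anti-EZH2 was divided by that with IgG in the same heart group, and this ratio was divided by the median ratio of the 4846 genes (0.822 in Sham, 0.925 in AngII 4h and 0.653 in AngII 24h). A scaled log2 ratio of 0 therefore marks the middle gene of a pair, and "shifted" is used below for a gene whose scaled ratio was past 1.5-fold on the same side in all 3 pairs. Values given in threes follow the order Sham, AngII 4h, AngII 24h. The values are those of a separate table for each library, and a second deposited table holds other FPKM of the same libraries.

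The hearts were left ventricles of male mice aged 10 weeks in groups of 2 mice. Sham mice carried a pump with saline (their labels read Untreated), and the other groups received angiotensin II, a peptide hormone that raises blood pressure and drives growth of the heart muscle, from an osmotic minipump at 1 mg/kg/min for 4 h (AngII 4h) or 24 h (AngII 24h). The strain label was C57BL/6 for 4 libraries, C57BL/7 for the AngII 4h anti-EZH2 library and C57BL/8 for the AngII 24h anti-EZH2 library. From each group 2 RIP products were mixed into 1 library per antibody, so no combination of group and antibody had a replicate, and the 3 pairs served as replicates of the antibody contrast although their hearts had been treated differently. A p-value below therefore rests on these 3 pairs as replicates. In limma it sets the mean ratio of a gene against the spread between the pairs, which is moderated by a trend over all genes.

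EZH2 is the catalytic subunit of Polycomb repressive complex 2 (PRC2), which places methyl groups on lysine 27 of histone H3 and so marks genes for silencing. PRC2 is known to contact many RNAs, coding and non-coding, with a preference for G-rich stretches, and long non-coding RNAs such as Hotair, Meg3 and H19 have been described as its partners. In the heart, EZH2 holds back fetal genes in cardiomyocytes. A RIP from a lysate also keeps RNAs that bind the beads, the antibody or other proteins, which is why each library is read against its IgG partner.

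The inferred depth was between 3810745 and 5247187 fragments with IgG and between 4782032 and 7981971 with anti-EZH2. The lowest read number of a tested gene over the 6 libraries had a median of 32.7 (quartiles 14.8 and 69.6). The AngII 24h anti-EZH2 library stood apart, since its FPKM summed to 1066359 while the sums of the others were between 1713601 and 2166093, and mitochondrial rRNA took 25.9% of it. In the AngII 4h anti-EZH2 library both mitochondrial rRNA genes were listed at 0, but with the status HIDATA, so they were too deep to be estimated and the mitochondrial rRNA share cannot be compared between libraries. Without the 5 genes of that status in any library the AngII 24h anti-EZH2 library still had the lowest sum, 790310 against 1713601 or more. All 10 cardiomyocyte markers were above 1 FPKM in all 6 libraries, with summed levels between 7090 and 9680 FPKM with IgG and between 5500 and 8640 FPKM with anti-EZH2, and none of 7 adipocyte and 4 B cell markers passed the same minimum. In such whole tissue, fewer cells of a type and less RNA per cell cannot be told apart.

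No gene passed the test of anti-EZH2 against IgG after adjustment. In limma with the heart group as a block, 0 of 4846 genes had a Benjamini-Hochberg adjusted p below 0.05 (0.0%, smallest adjusted p 0.161). At an unadjusted p below 0.05, 176 genes were higher (3.63%) and 110 lower (2.27%) with anti-EZH2. The scaled ratio lay above 1 in all 3 pairs for 654 genes (13.5%) and below 1 in all 3 for 693 (14.3%). Past 1.5-fold in every pair there were 102 higher (2.10%) and 41 lower genes (0.846%), and past 2-fold 44 higher (0.908%) and 5 lower genes (0.103%). Without division by the median ratio there were 52 higher and 134 lower genes past 1.5-fold, so the balance of the directions depends on the scaling. In single pairs far more genes were past 1.5-fold, with 1066 higher (22.0%) and 852 lower (17.6%) in Sham, 854 (17.6%) and 689 (14.2%) in AngII 4h, and 1023 (21.1%) and 1047 (21.6%) in AngII 24h. With each level divided by the median of its library, the 3 anti-EZH2 levels were all above the 3 IgG levels for 254 genes (5.24%) and all below for 240 (4.95%). Without the AngII 24h pair, whose anti-EZH2 library stood apart, 320 genes were past 1.5-fold higher and 164 lower in the remaining pairs, and 0 passed in limma (288 higher and 91 lower at an unadjusted p below 0.05).

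**Figure D1:**
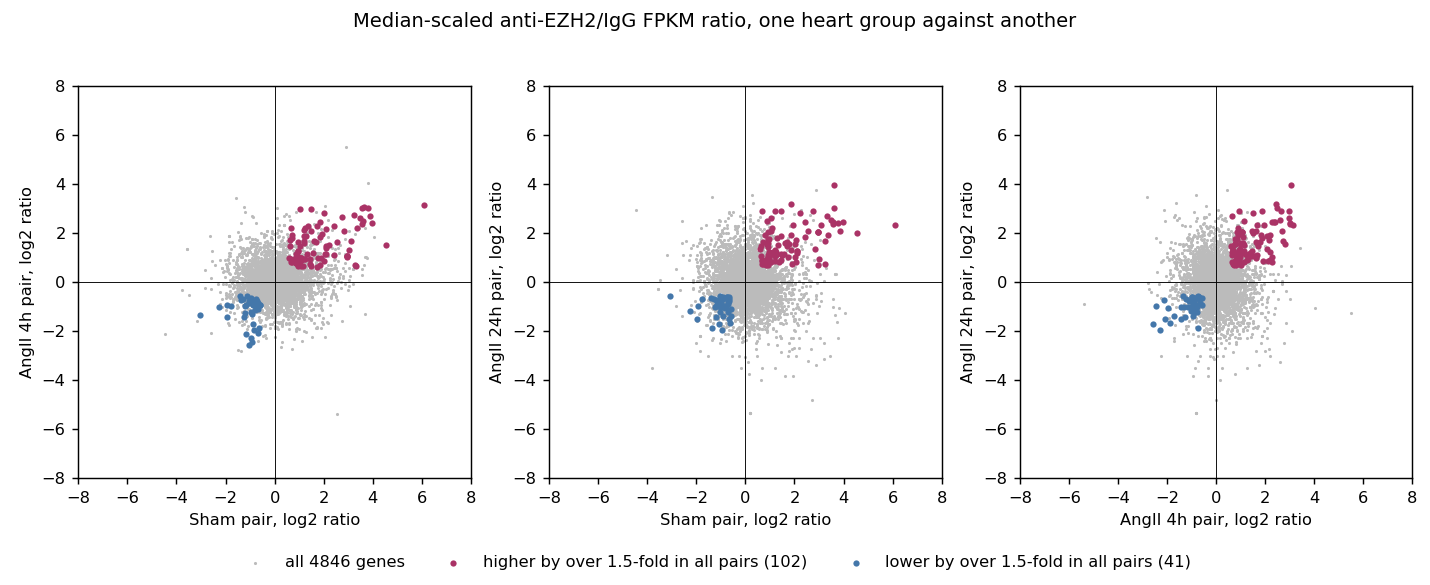
Median-scaled log2 anti-EZH2/IgG FPKM ratio of each gene in a heart group (x axis) against that in another (y axis), with all 4846 genes in grey, the 102 genes higher by more than 1.5-fold in all pairs in red and the 41 lower genes in blue. The grey cloud has no visible slope (Pearson r of 0.15, 0.0 and 0.0 from left to right), and the red genes reach further from the origin than the blue ones.

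Across genes, the ratios of a pair said little about those of another. Pearson's r over the 4846 genes was 0.15 between Sham and AngII 4h, and 0.0 for both other combinations, as a description across genes that share libraries and are not independent. Among the 264 genes with at least 300 inferred reads in every library r was 0.39 between AngII 4h and AngII 24h, 0.17 between Sham and AngII 24h and 0.02 between Sham and AngII 4h. Near the limit on the higher side, Hmgb3 was just inside with a weakest ratio of 1.52-fold and Il15ra outside with 1.49-fold. On the lower side Gm15516 and Acsl1 were inside with 1.51-fold, and Klf3 and Dlgap4 outside with 1.49-fold.

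The 102 higher genes were not 102 separate RNAs. Where transcripts shared at least 50 nt and 50% of the shorter transcript at 90% identity or more, 29 of the 98 higher genes with a GENCODE sequence fell into 6 families, and counting each family once left 79 entries. None of the 41 lower genes shared sequence in this way.

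The largest family held 9 higher genes, among them 7 of the 12 genes with the highest weakest ratio. RP24-447I18.1, of the class TEC (GENCODE's class for unspliced transcripts that still await an experimental test), lies at chr5:62428719-62429077 on the plus strand and led the ranking. Its FPKM with IgG was 10.7 in Sham, 3.61 in AngII 4h and 1.67 in AngII 24h, against 109, 27.8 and 17.0 with anti-EZH2. Each anti-EZH2 value was above every IgG value, and the level was highest in Sham with both antibodies. The scaled log2 ratios were 3.63, 3.06 and 3.96 (mean 3.55, SE 0.26, adjusted p in limma = 0.161). Only 7, 3 and 1 inferred reads stood behind the IgG values. Its opening bases are printed as an example from the first member. Members were joined through chains of pairwise alignments, so not all 9 need share this stretch.

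RP24-447I18.1, first 120 nt: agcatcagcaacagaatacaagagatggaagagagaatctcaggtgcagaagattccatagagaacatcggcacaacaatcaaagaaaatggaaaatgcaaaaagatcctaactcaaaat

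The other members were the pseudogenes Gm17131, Gm17132, RP23-324P1.1, Gm38356 and RP24-258B22.1, the lincRNA Gm26905, the TEC gene Gm37701 and Gm21897, which is annotated as protein-coding. Over all 9 members the scaled log2 ratios were between 2.02 and 3.97 in Sham, between 2.18 and 3.06 in AngII 4h and between 1.52 and 3.96 in AngII 24h, with RP24-447I18.1 the highest in both AngII pairs. Alignments between members were between 219 and 3846 nt long with at least 92.5% identity, in both orientations, and 45 other GENCODE genes on 19 chromosomes matched RP24-447I18.1 over 80% of its length at 90% identity. Gm17131 (chr5:127878531-127882376, plus strand, inside Tmem132d on the opposite strand) is 3846 nt long and is a single open reading frame from end to end. A reading frame of the same length lies on the opposite strand of Gm26905, whose locus spans chr8:58171435-58298866. Gm17132 (chr5:127877333-127878490) lies just before Gm17131 on the same strand. Whether these neighbours are parts of a single copy was not tested. No repeat annotation was used here, so no repeated element was named.

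Among the best covered members, Gm26905 had FPKM of 2.20, 1.32 and 1.42 with IgG and 21.3, 6.25 and 5.07 with anti-EZH2, from 61, 44 and 35 against 779, 320 and 156 inferred reads. Its unscaled ratio was 9.69 in Sham (exact 95% interval of counting error 7.48 to 12.8), 4.75 in AngII 4h (3.48 to 6.71) and 3.57 in AngII 24h (2.45 to 5.28), so the Sham interval lay above the others. The same order was seen in RP23-324P1.1, with unscaled ratios of 11.3 (8.85 to 14.7), 7.45 (5.30 to 10.5) and 3.41 (2.40 to 4.97). Scaled log2 ratios were 3.56, 2.36 and 2.45 for Gm26905 and 3.79, 3.01 and 2.39 for RP23-324P1.1. Sham stayed highest in both, but the order of the AngII groups in Gm26905 depended on the scaling. Reads from such copies can be placed at several loci, so that the members are not independent of each other and the level of a single copy is uncertain.

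**Figure D2:**
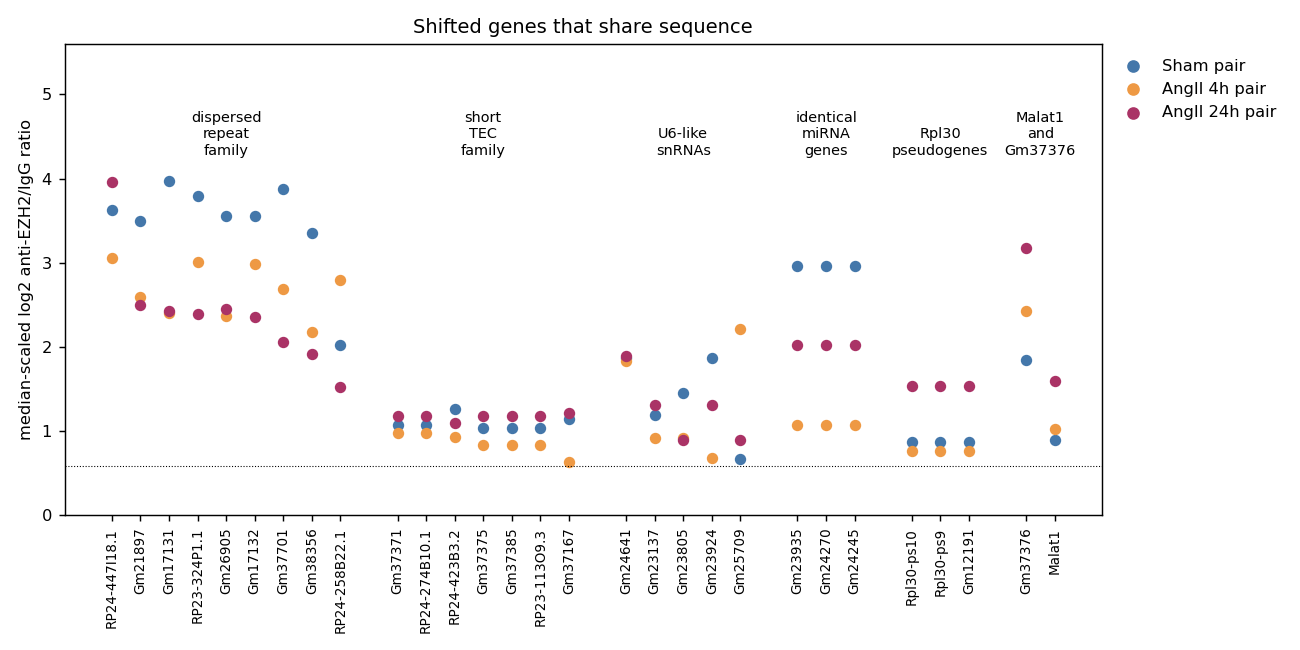
Median-scaled log2 anti-EZH2/IgG ratio (y axis) of the shifted genes that share sequence, grouped by family along the x axis, with a point for each of the 3 pairs and a dotted line at 1.5-fold. All points lie above the line because only genes shifted higher are drawn. The repeat family reaches 3.97, and several families repeat nearly the same values from gene to gene.

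Other families were shorter. A family of 7 TEC genes with matches of 255 to 394 nt at 98.4% identity or more (Gm37371 and others, with a counterpart in the Noct transcript at 98.2% over 394 nt) had scaled log2 ratios between 0.63 and 1.26. These genes had nearly identical levels in each library, for instance 1.58, 1.23 and 1.42 FPKM with IgG for each of Gm37375, Gm37385 and RP23-113O9.3, from at most 1.26 inferred reads. The 3 pseudogenes of Rpl30, a protein of the large ribosomal subunit (Rpl30-ps9, Rpl30-ps10 and Gm12191), shared ratios of 0.87, 0.76 and 1.53. In the second table the genes of these families were listed at 0 in every library.

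Of the TEC class as a whole, 11 of 23 tested genes were shifted higher (47.8%, against 2.10% of all genes) and 0 lower. The class had medians of 1.07, 0.83 and 1.07, and 15 of 23 genes were above 1 in every pair. Over the TEC genes of the second table the median of the mean ratio was 0.05, against 0.99 here. The genes behind these medians differ, since the short family and Gm37701 did not pass the minimum there. Gm37376, 7 genes of the short family and RP24-447I18.1 and Gm37701 make up most of the 11, so the count holds few separate RNAs. The remaining shifted TEC gene, Gm38194, was low, between 1.78 and 2.80 FPKM with IgG and between 3.42 and 3.99 with anti-EZH2.

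Of the microRNA genes, 6 of 27 tested were shifted higher (22.2%, against 2.10% of all genes) and 0 lower (0.846% of all genes). MicroRNAs are short guides that lead Argonaute proteins to messenger RNAs, and the levels here are those of the hairpin loci in a library of longer fragments. Mir6236 (chr9:110281287-110281409, plus strand, overlapping no other annotated gene) had the second highest weakest ratio of all genes. Its FPKM was 1824, 1393 and 1300 with IgG and 10107, 8155 and 6283 with anti-EZH2. The antibodies did not overlap, and the ratio hardly varied between hearts, with scaled log2 values of 2.75, 2.66 and 2.89 (mean 2.77, SE 0.24, adjusted p in limma = 0.218). In the second table the scaled log2 values were 1.99, 3.27 and 3.13, so the ratio was less even there. Inferred reads were 41, 38 and 26 against 298, 337 and 156, and the lower bounds of the unscaled ratios (exact 95% intervals) were 3.98, 4.16 and 3.14.

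Mir6240 (chr5:114851948-114852064, plus strand) had FPKM of 1499, 1587 and 2283 with IgG and 11580, 9607 and 4699 with anti-EZH2, again without overlap, and scaled log2 ratios of 3.23, 2.71 and 1.66. The AngII 24h pair had the smallest difference. The mature sequences of both, from RefSeq (GRCm38.p6), are given to show how they differ, with the seed (bases 2 to 8) in capitals.

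mmu-miR-6236: gCCGUCGCcggcagucagg

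mmu-miR-6240: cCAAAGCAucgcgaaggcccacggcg

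The seeds differ, and neither hairpin matched another GENCODE transcript at 80% identity. Whether Mir6236, Mir6240, Gm24245 or Gm15564 match the precursor or the large RNA of the cytosolic ribosome was not tested, as neither sequence was used here. Another 3 shifted miRNA genes were copies of each other. Gm24245 (chr4:139338304-139338360), Gm23935 (chr16:11144125-11144181) and Gm24270 (chr9:56223715-56223771) share an identical stretch of 57 nt and were given the same FPKM in every library, 2040, 3434 and 2643 with IgG and 13017, 6685 and 6984 with anti-EZH2. Their scaled log2 ratios were 2.96, 1.07 and 2.02, and fewer than 5 inferred reads stood behind each IgG value. In the second table all 3 were listed at 0 in all 6 libraries. The next sequence shows what these entries hold.

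Gm24245: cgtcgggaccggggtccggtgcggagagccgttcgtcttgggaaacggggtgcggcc

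A single entry of ribosomal RNA was shifted (1 of 57 tested, 1.75%, against 2.10% of all genes). n-R5-8s1, an annotated copy of the 5.8S RNA of the large ribosomal subunit, had FPKM of 22.7, 93.4 and 102 with IgG and 1283, 762 and 328 with anti-EZH2. Its scaled log2 ratios were 6.11, 3.14 and 2.30, so that Sham had the largest value of any shifted gene. This rested on 1 inferred read with IgG against 74, and the exact 95% interval of the unscaled Sham ratio ran from 9.79 to 2250. In the second table the gene was listed at 0 in all 6 libraries. The other 56 tested rRNA genes were not shifted, and the class had medians of 0.61, 0.68 and -1.22.

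Gm15564, an antisense gene (chr16:35966752-35983230, minus strand) that overlaps Parp9 and Kpna1 on the opposite strand, had nearly the same ratio in all pairs of the separate tables. Its FPKM was 49.7, 41.4 and 31.5 with IgG and 220, 187 and 110 with anti-EZH2. The scaled log2 ratios were 2.43, 2.29 and 2.43 (mean 2.38, SE 0.16, adjusted p in limma = 0.161). In the second table, which holds the same libraries, they were 0.77, 2.73 and 1.27, so that the evenness was not seen there. With transcripts under 200 nt left out of the fit, Gm15564 passed (adjusted p = 0.0118), together with RP24-447I18.1 (adjusted p = 0.0255) and Gm20594 (adjusted p = 0.0255), and with at least 10 inferred reads in every library it was the only gene to pass (adjusted p = 0.0176). Over all alternatives that could be fitted, the adjusted p of limma ran from 0.0118 to 0.877 for Gm15564, from 0.0255 to 0.877 for Gm20594 and from 0.0255 to 0.817 for RP24-447I18.1, each highest without the AngII 4h pair.

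Entries at the Malat1 locus were higher in all pairs on both strands. Malat1, an abundant nuclear lincRNA of nuclear speckles (chr19:5795690-5802672, minus strand), had FPKM of 330, 376 and 376 with IgG and 501, 707 and 738 with anti-EZH2, and the antibodies did not overlap. Its scaled log2 ratios were 0.89, 1.02 and 1.59 (mean 1.17, SE 0.22, adjusted p in limma = 0.561). With 9674 to 13394 inferred reads per IgG library and 19300 to 38288 per anti-EZH2 library, its counting error was small, and the unscaled ratio was 1.52 in Sham (exact 95% interval 1.48 to 1.55), 1.88 in AngII 4h (1.84 to 1.92) and 1.96 in AngII 24h (1.92 to 2.01).

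Gm37376, a TEC gene inside Malat1 on the plus strand (chr19:5801941-5802393), had a larger ratio than Malat1 in each pair. Its FPKM was 42.6, 47.5 and 44.5 with IgG and 126, 237 and 263 with anti-EZH2, and the scaled log2 ratios were 1.84, 2.43 and 3.18 (mean 2.48, SE 0.30, adjusted p in limma = 0.274). IgG levels were nearly equal between hearts, while the anti-EZH2 level was lowest in Sham. Gm20417 (chr19:5797562-5798549 in the deposited loci, absent from the annotation used here) had FPKM of 16.6, 26.5 and 32.9 against 79.5, 76.5 and 89.2, with ratios of 2.54, 1.64 and 2.05. The whole of Gm37376 is the reverse complement of Malat1 positions 280 to 732 of 6983 nt, which the next sequences show for its first 60 nt, printed 5′ to 3′ beside the Malat1 stretch that pairs with them.

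Gm37376, first 60 nt: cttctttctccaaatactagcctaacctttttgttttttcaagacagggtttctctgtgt

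Malat1, from position 673: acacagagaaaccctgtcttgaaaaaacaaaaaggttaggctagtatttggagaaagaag

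The library kit kept the strand, but the strand setting of the counting is not given in the sources used here, so reads of Malat1 and of genes on its opposite strand cannot be told apart in these tables. At 80% identity Gm37376 also had hits in 3514 GENCODE genes, of which 1 reached over 80% of its length. Whether reads from other loci were counted for Gm37376 was not tested.

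Among small nucleolar RNAs, guides for the chemical modification of ribosomal RNA, only Snord32a was shifted (1 of 91 tested, 1.1%, against 2.10% of all genes). It is a C/D snoRNA in an intron of Rpl13a (chr7:45127382-45127464, minus strand). Its FPKM was 399, 484 and 441 with IgG and 2806, 1405 and 1443 with anti-EZH2, without overlap, and the scaled log2 ratios were 3.10, 1.65 and 2.32. The reads were few, with 2, 3 and 2 inferred reads against 18, 13 and 8, and in AngII 4h and AngII 24h the exact 95% interval of the unscaled ratio reached below 1 (lower bounds 0.783 and 0.636). The host gene Rpl13a, a ribosomal protein gene, had ratios of -1.29, 0.34 and 0.65. Capitals in the sequence mark TGATGA at position 9 and CTGA at position 74, the letters of the C and D boxes, each found once.

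Snord32a: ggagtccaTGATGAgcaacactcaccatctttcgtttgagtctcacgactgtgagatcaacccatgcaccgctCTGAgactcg

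Mitochondrial tRNAs had medians of 2.83, 1.51 and 1.35 over the 5 tested genes. The median of their mean ratio was 1.94 here. In the second table it was 0.44 over the genes that passed the minimum there, which need not be the same. Of the 5 genes tested here, 5 were above 1 in every pair (13.5% of all genes). Of these, 3 were shifted higher (60%, against 2.10% of all genes). For mt-Ts1, a serine tRNA (chrM:6870-6938, minus strand, touching mt-Co1), FPKM was 1294, 10658 and 6120 with IgG and 24580, 27829 and 15615 with anti-EZH2, from 3, 30 and 12 against 75, 119 and 40 inferred reads. Its scaled log2 ratios were 4.53, 1.5 and 1.97, and the antibodies did not overlap. For mt-Th, the histidine tRNA (chrM:11546-11612, plus strand), the values overlapped, with 491, 1214 and 535 FPKM against 2863, 4795 and 889, and ratios of 2.83, 2.09 and 1.35 from at most 3 IgG reads. The methionine tRNA mt-Tm had ratios of 2.44, 1.08 and 1.83. mt-Ts1 is printed as the tRNA with the largest ratio.

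mt-Ts1: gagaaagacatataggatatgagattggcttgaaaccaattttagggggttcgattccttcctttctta

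The 13 mitochondrially encoded protein genes did not share this, with medians of 0.32, -0.17 and 0.16 and 0 of 13 on the same side in all pairs. Over all genes 13.5% were above 1 and 14.3% below in all pairs. mt-Co1, a cytochrome c oxidase subunit, had ratios of 0.25, -0.08 and 0.02. Gm20594 (chr6:79817916-79818364), a nuclear gene whose transcript matched the mitochondrial 16S rRNA gene mt-Rnr2 at 88.5% over 435 nt, was shifted higher with ratios of 2.08, 2.16 and 1.70. Its FPKM was 142, 298 and 182 with IgG and 492, 1231 and 386 with anti-EZH2. In the second table its ratios were 0.23, -0.23 and 0.64, so its side depended on the table. mt-Rnr2 itself was listed at 0 with the status HIDATA in 3 of the 6 libraries, so it was not measured there.

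Spliceosomal snRNAs, the RNA cores of the splicing machinery, had 5 of 148 tested genes shifted higher (3.38%, near the 2.10% of all genes) and 0 lower. All 5 (Gm24641, Gm23137, Gm23805, Gm23924 and Gm25709) were copies related to U6, and Gm24641 (chr9:109358229-109358335, minus strand) matched Rnu6 at 99.1% over 107 nt. Gm24641 had FPKM of 3.74, 3.08 and 4.18 with IgG and 11.2, 10.1 and 10.1 with anti-EZH2, a small part of the level of the class, and ratios of 1.87, 1.83 and 1.89. These rest on at most 0.0499 inferred reads with IgG and 0.25 with anti-EZH2, and all 5 copies had at most 0.649 reads in any library, less than 1 read each. Its match to 338 GENCODE genes at 90% identity over 80% of its length leaves the origin of its reads uncertain. In the second table all 5 copies were listed at 0 in every library. On the lower side, the abundant Gm24305 (chr12:54734555-54734718), which matched the U1 gene Rnu1b6 at 94.6% over 166 nt, had FPKM of 88679, 70151 and 65390 with IgG and 55650, 52522 and 22941 with anti-EZH2. Its ratios were -0.39, -0.31 and -0.90 (adjusted p in limma = 0.929), not past 1.5-fold in every pair.

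**Figure D3:**
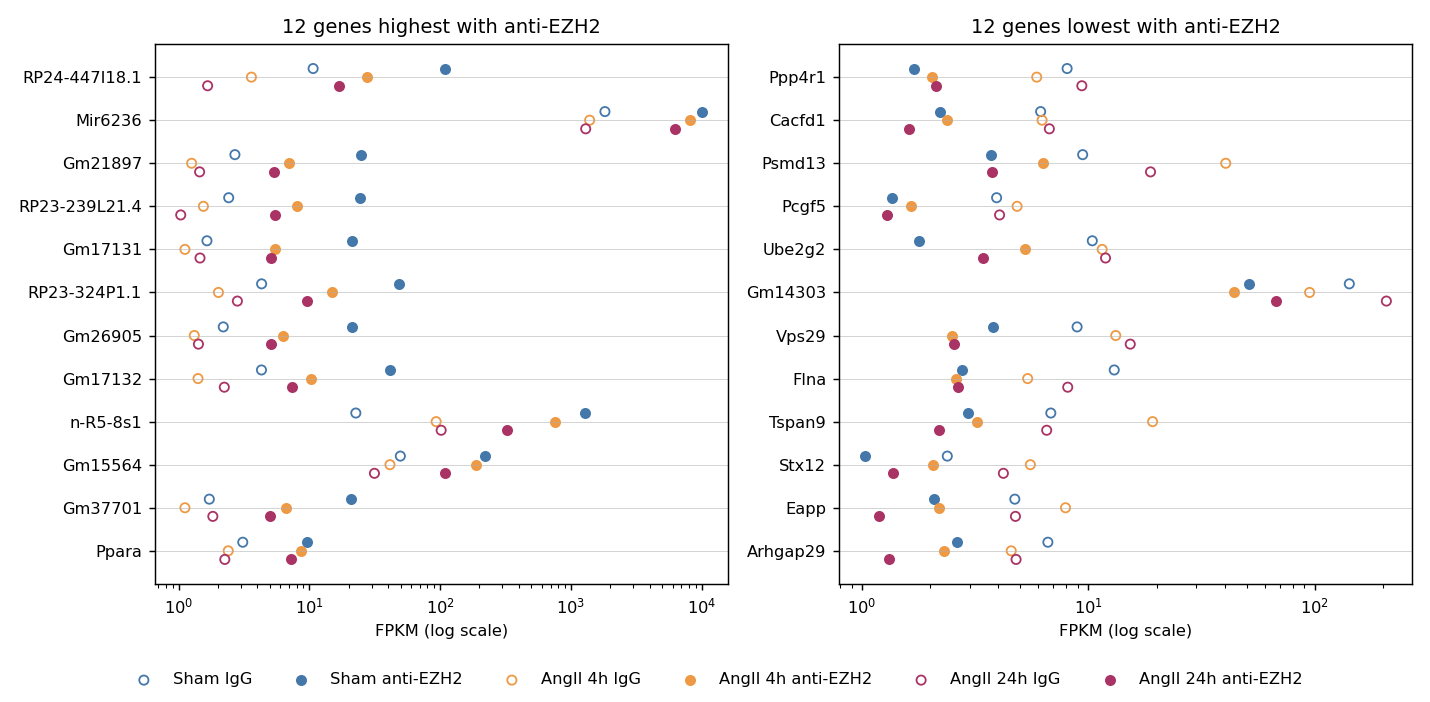
FPKM on a log axis in each of the 6 libraries for the 12 genes with the highest and the 12 genes with the lowest weakest ratio, with open circles for IgG, filled circles for anti-EZH2 and a colour for each heart group. In all 24 genes the filled circle of a heart group lies on the same side of its open circle, which follows from how the genes were chosen. The separation is wider on the left.

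Protein-coding genes made up 57 of the 102 higher genes, which is 1.42% of the 4025 tested, below the 2.10% over all genes. Ppara, the nuclear receptor that drives genes of fatty acid oxidation (chr15:85734983-85802819, plus strand), ranked first among those that share no sequence with other shifted genes. Its FPKM was 3.10, 2.40 and 2.26 with IgG and 9.66, 8.65 and 7.26 with anti-EZH2, without overlap. The scaled log2 ratios were 1.92, 1.96 and 2.30 (mean 2.06, SE 0.27, adjusted p in limma = 0.308). Of 24 genes of fatty acid oxidation, 0 were shifted higher and 1, Acsl1, an acyl-CoA synthetase, was shifted lower (ratios of -1.02, -0.75 and -0.59, but -0.76, -0.49 and 0.05 in the second table).

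Further coding genes past 1.5-fold were spread over functions. Mark2, a kinase of microtubule regulation and cell polarity, had ratios of 1.70, 1.64 and 1.62, and its FPKM was 1.37, 1.46 and 3.39 with IgG and 3.65, 4.20 and 6.81 with anti-EZH2. Fn1, the matrix protein fibronectin, had ratios of 1.56, 1.17 and 1.15, from 2.25, 3.34 and 2.48 FPKM against 5.46, 6.95 and 3.58. Tln1, which links integrins to actin, had 1.73, 2.29 and 1.03. Nsf, an ATPase that takes SNARE complexes apart, had 1.20, 1.86 and 2.89. C3, the central complement component, had 0.91, 0.75 and 1.76. Stau1, a protein that binds double-stranded RNA, had 0.71, 1.77 and 1.61. Nexn, an actin-binding protein of the Z-disc, was the most abundant of the genes in this paragraph at 41.1, 36.9 and 36.5 FPKM with IgG, and its ratios were 0.70, 0.81 and 0.74. With anti-EZH2 Nexn had 55.0, 59.9 and 39.7 FPKM. The FPKM of C3 overlapped between antibodies, with 2.82, 5.14 and 4.39 with IgG and 4.37, 8.01 and 9.72 with anti-EZH2.

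The 41 lower genes were 39 protein-coding genes (0.969% of 4025, near the 0.846% of all genes) and 2 pseudogenes. Coding genes were also 4025 of the 4846 genes tested. Ppp4r1, a regulatory subunit of protein phosphatase 4 (chr17:65782573-65841926, plus strand), was the lowest by its weakest ratio. Its FPKM was 8.05, 5.91 and 9.35 with IgG and 1.70, 2.04 and 2.12 with anti-EZH2, with no overlap. The scaled log2 ratios were -1.96, -1.42 and -1.53 (mean -1.64, SE 0.28, adjusted p in limma = 0.495). Cacfd1, a membrane protein gene, followed with even ratios of -1.20, -1.28 and -1.45, from 6.15, 6.24 and 6.72 FPKM against 2.20, 2.37 and 1.61.

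Pcgf5, a subunit of Polycomb repressive complex 1, was among the 5 genes lower by more than 2-fold in every pair. It had FPKM of 3.93, 4.84 and 4.05 with IgG and 1.35, 1.65 and 1.29 with anti-EZH2, and ratios of -1.25, -1.44 and -1.03 (adjusted p in limma = 0.561). The remaining 2 of these 5 were Psmd13, a proteasome lid subunit (-1.06, -2.57 and -1.72), and Ube2g2, a ubiquitin-conjugating enzyme of protein degradation at the endoplasmic reticulum (-2.26, -1.02 and -1.18). Psmd13 varied widely with IgG alone, at 9.43, 40.4 and 18.8 FPKM.

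Among the next lower genes, Gm14303 (chr2:172509521-172509691), a processed pseudogene that matched Rps29-ps at 91.8% over 171 nt, had FPKM of 142, 94.8 and 207 against 51.2, 44.1 and 67.4 and ratios of -1.19, -0.99 and -1.0. Rps29 itself had -0.41, -0.31 and -0.22. Flna, an actin crosslinker, had ratios of -1.95, -0.94 and -1.0, and the retromer subunit Vps29 had -0.96, -2.29 and -1.98. The basement membrane gene Lamb2 had 31.6, 53.8 and 22.7 FPKM with IgG and 11.5, 11.3 and 8.91 with anti-EZH2, and ratios of -1.17, -2.14 and -0.74. Igf2r, the receptor that takes up IGF2, had -0.82, -0.96 and -1.0, but 0.35, -1.89 and 0.22 in the second table. The antibodies did not overlap in Lamb2, and the matrix genes as a list were split, with Fn1 shifted higher, Lamb2 lower and the other 23 of 25 neither.

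Nuclear-encoded snRNA, snoRNA, rRNA and miRNA genes did not hold their side over the 3 pairs. Against 0 for all genes by construction, the median scaled log2 ratio of 148 snRNA genes was 1.26 in Sham, 0.50 in AngII 4h and -0.80 in AngII 24h. For 91 snoRNA genes it was 0.38, 0.25 and -0.90, for 57 rRNA genes 0.61, 0.68 and -1.22, and for 27 miRNA genes 0.60, 1.29 and -0.69. The 340 genes with transcripts under 200 nt had 0.70, 0.64 and -0.88. The AngII 24h pair was thus on the opposite side in each, and it holds the anti-EZH2 library with the low FPKM sum. These classes are themselves counted in that sum, with snRNA alone at 35.8% to 55.9% of it over the libraries. The low sum is therefore not a separate observation. Protein-coding genes (-0.04, -0.03 and 0.04) and pseudogenes (0.02, 0.0 and -0.03) stayed near 0, and 66 lncRNA genes had 0.03, 0.13 and 0.18. Of the 66, 5 were shifted higher (7.58%, against 2.10% of all genes) and 0 lower (0.846% of all genes).

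**Figure D4:**
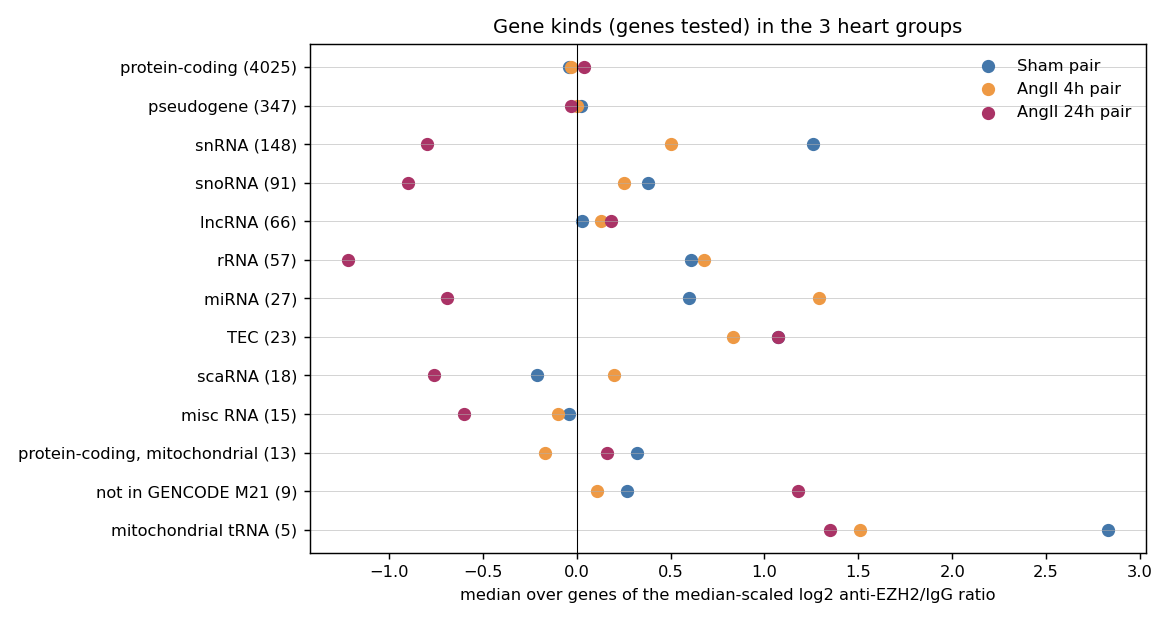
Median over genes of the median-scaled log2 anti-EZH2/IgG ratio (x axis) for each gene kind, with the number of genes tested in brackets and a point for each pair. Mitochondrial tRNA and TEC lie above 0 in all pairs (the Sham and AngII 24h points of TEC coincide at 1.07), while snRNA, snoRNA, rRNA and miRNA lie below 0 in AngII 24h only.

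As shares of the summed FPKM, which use no median, miRNA genes took 0.702%, 1.09% and 0.825% with IgG and 4.10%, 3.02% and 3.53% with anti-EZH2. Mitochondrial tRNA took 0.431%, 1.86% and 0.915% against 3.58%, 4.85% and 3.29%, and lncRNA genes 0.092%, 0.0843% and 0.0764% against 0.117%, 0.135% and 0.188%. These 3 classes were higher with anti-EZH2 in 3 of 3 pairs, as was TEC, and snRNA was lower in 3 of 3 (52.9%, 55.9% and 51.2% against 41.7%, 52.4% and 35.8%). The sums miss the genes with the status HIDATA, among them Rn18s-rs5 in all 6 libraries and mt-Rnr2 in 3. With those genes left out of every library, the 5 classes kept their side in 3 of 3 pairs, while pseudogenes, higher in 3 of 3 before, were higher in 2. For each of the 5 classes the exact sign-flip permutation test gave a two-sided p of 0.25, the smallest that 3 pairs allow. The miRNA share counts Mir6236 and Mir6240 (10107 and 11580 FPKM in Sham anti-EZH2) and the 3 identical entries (13017 FPKM each). It is therefore not a separate observation from these genes, and the median over miRNA genes was -0.69 in AngII 24h.

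Lists of heart genes lay near the middle of the ratios. Of 82 tested genes for cytosolic ribosomal proteins, 28 were below 1 in all pairs and 4 above, with 0 shifted either way (medians -0.18, -0.04 and -0.16). Of 78 nuclear-encoded subunits of oxidative phosphorylation, 26 were below and 3 above, with 0 shifted (medians -0.14, -0.03 and -0.17), and Cox6a2, the muscle form of a cytochrome c oxidase subunit, had -0.15, -0.14 and -0.17. Over all genes 14.3% were below 1 in all pairs. The 30 sarcomere and Z-disc genes had medians of -0.04, 0.01 and 0.05, with 7 above and 4 below, and Myl2, a ventricular myosin light chain at 3045, 3934 and 3294 FPKM with IgG, had ratios of -0.24, -0.19 and -0.02. The 18 tested genes of calcium handling and ion channels had medians of -0.04, 0.07 and 0.01, and of the 5 hypertrophy markers Ankrd1 had ratios of -0.05, -0.11 and -0.06. In limma 0 genes of any list passed after adjustment.

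Of 20 lncRNA names listed for a described link to PRC2 or for nuclear retention, 8 were tested, with 6 above and 1 below in all pairs (13.5% and 14.3% of all genes), and 4 were shifted higher (2.10% of all genes). These were Malat1, Gm20417, Gm37376 and Tug1, of which 3 share the Malat1 locus, and the list was made with these data known. Tug1, an lncRNA described as bound by PRC2, had FPKM of 2.26, 3.05 and 1.99 with IgG and 3.89, 5.22 and 5.97 with anti-EZH2, and ratios of 1.07, 0.89 and 2.20. In the second table it had -0.20, 1.83 and 0.73, so its side in Sham depended on the table. Neat1, the RNA scaffold of paraspeckles, had 0.22, 0.78 and 0.76. H19, an imprinted lncRNA, was on the lower side with -0.55, -1.54 and -0.75 (adjusted p in limma = 0.823), from 5.00, 4.67 and 3.83 FPKM against 2.81, 1.49 and 1.49. Gas5, which hosts snoRNAs, changed side with -0.88, 1.60 and 0.55. Hotair, Meg3 and Gm15832 were at or below 1 FPKM in at least 1 library and were not tested.

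Messenger RNAs of PRC2 itself did not share a side. Of 11 listed subunits and cofactors 6 were tested, and 0 were on the same side in all pairs. Over all genes 13.5% were above 1 and 14.3% below in all pairs, so 0 of 6 says little about them. Suz12 had ratios of -1.81, -0.57 and 1.18. Ezh2 had FPKM of 1.67, 1.05 and 2.06 with IgG and 0.266, 1.19 and 0.659 with anti-EZH2 and was not tested. Of the H/ACA snoRNAs singled out by the study, which guide pseudouridylation, Snora68 had 2.46, 1.09 and -2.02, Snora7a 2.39, 0.13 and -0.55, Snora47 1.99, 0.97 and -0.70, Snora33 0.61, 2.51 and -0.70, and Snora31 -0.13, 1.246 and -2.28. The C/D snoRNAs Snord104 and Snord15a had 2.92, 1.01 and -0.07, and 1.34, 1.97 and -1.44. None of these 7 had the same side in all 3 pairs, where 13.5% of all genes were above 1 and 14.3% below. The AngII 24h value was below 0 in each of the 7. With anti-EZH2 in AngII 24h, however, each had at most 9.98 inferred reads, and Snora31, Snora33 and Snora68 had about 1. Snora33 rested on 6, 1 and 2 reads with IgG against 10, 8 and 1 with anti-EZH2, so these sides are uncertain. Gm23639, also named by the study and annotated as a snoRNA gene, had -0.31, 0.92 and 0.54 and so lay above 0 in AngII 24h.

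The shifted coding genes were much like all tested coding genes in their transcripts. The median length was 3154 nt in the 57 higher, 3372 nt in the 39 lower and 3029 nt in all 4025 tested genes, and the median GC content was 51.3%, 50.3% and 50.1%. The run GGGG, counted with overlaps on the transcript strand, occurred at a median of 4.44, 4.36 and 4.04 per kb. Across coding genes the ratio was nearly unrelated to length (Spearman's rho of 0.04, 0.01 and 0.04), to GC (-0.03, 0.04 and 0.08) and to GGGG (-0.02, 0.0 and 0.08), as a description over 4021 genes that share libraries. Outside coding genes, the 45 higher ones had a median GC of 45.8% against 50.9% for all 808 tested, a median of 2.87 against 1.35 GGGG per kb, and 87.8% against 90.6% were unspliced. At 2-fold the higher non-coding genes had 1.56 GGGG per kb. A sequence was available for 41 of the 45 and 797 of the 808 genes. Members of a sequence family were counted separately in these medians, so copies of the same sequence weigh on them.

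The share of shifted genes was smaller among genes with more reads, on both sides. With at least 10 inferred reads in every library, 56 of 3996 genes were shifted higher (1.40%) and 33 lower (0.826%) at the ratios above, with at least 100 reads 7 of 837 (0.836%) and 5 (0.597%), and with at least 300 reads 2 of 264 (0.758%) and 1 (0.379%). The SD of the log2 ratios over genes narrowed from 0.86, 0.71 and 0.89 to 0.33, 0.33 and 0.46 over the same steps. Among the 264 best covered genes, 68 (25.8%) lay below 1 in all pairs and 28 (10.6%) above, against 14.3% and 13.5% over all genes.

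**Figure D5:**
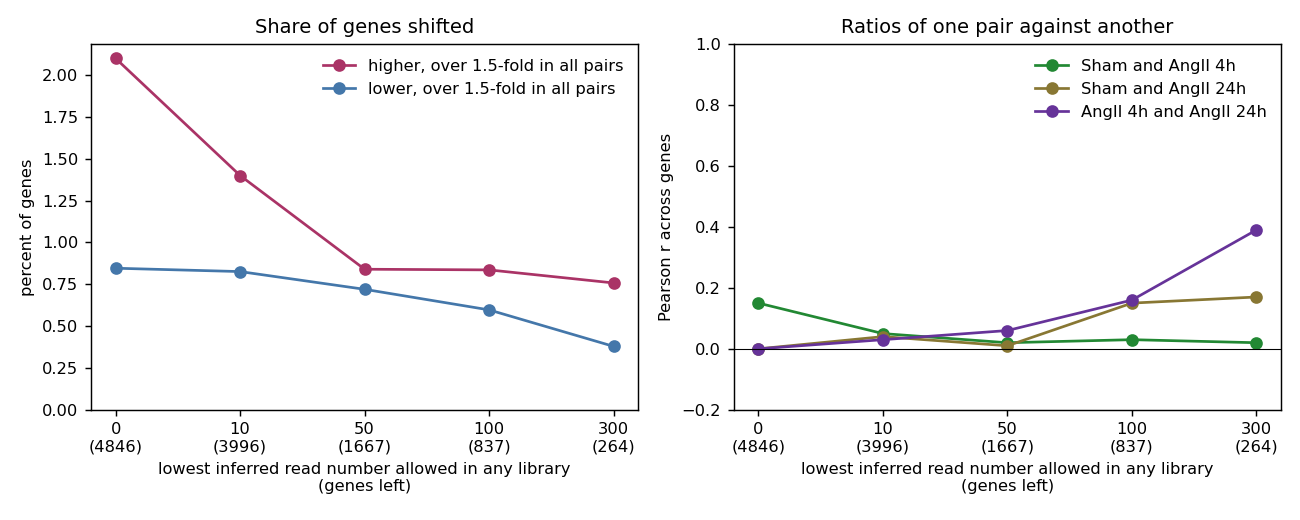
Left, percent of genes shifted by more than 1.5-fold in all pairs (y axis) among genes with at least the inferred read number on the x axis in every library, with the genes left in brackets. Right, Pearson's r across the same genes between the log2 ratios of each combination of pairs. The higher share goes from 2.10% to 0.758% and r between AngII 4h and AngII 24h from 0.0 to 0.39.

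In the second deposited table, which holds other FPKM values of the same libraries, 28 of the 102 higher and 22 of the 41 lower genes passed the minimum. Of the 28, 26 were above 1 in all pairs there and 18 past 1.5-fold, and of the 22 lower genes 19 were below 1 and 9 past 1.5-fold. Ratios there were 1.99, 3.27 and 3.13 for Mir6236, 1.95, 2.36 and 3.37 for Gm37376 and 1.48, 1.79 and 1.58 for Malat1, while Gm20594, Tug1, Acsl1 and Igf2r had a pair on the other side. Both tables come from the same reads, so this compares ways of quantifying them and adds no replicate.

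The minimum in all 6 libraries leaves out RNAs that were found with a single antibody. Of all 46072 genes, 12 were listed at 0 in the 3 IgG libraries and above 1 FPKM in the 3 anti-EZH2 libraries, and 1, the pseudogene Gm13378, was listed the other way round. Gm17428, annotated as protein-coding with 93 nt, had 475, 276 and 577 FPKM with anti-EZH2 (about 5, 4 and 5 inferred reads), the rRNA gene Gm24601 had 116, 41.7 and 232 FPKM (6, 3 and 10 reads), and the lncRNA Gm11261 had 2.01, 2.17 and 3.55 FPKM (7, 11 and 11 reads). Only 3110009E18Rik, with 12, 11 and 4 reads, and Gm11261 had more than 10 reads in any library among those with an inferred number, and no fold was calculated against 0.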

How the data were processed

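RIP-seq libraries of 3 heart groups and 2 antibodies were analysed from the FPKM that the authors deposited in a separate gene table for each library. Per the labels and the methods of the study, stranded libraries (KAPA kit) were sequenced on a NextSeq 500 and mapped to mm10 with TopHat2, as the submitters' processing notes also state. The program and annotation behind the FPKM, and its strand setting, are not given in the sources used here. The deposited FPKM are already divided by transcript length and mapped fragments, so no count test was run. Of 46165 rows, 93 repeated a gene and were summed. Genes were matched to GENCODE M21 (GRCm38) by identifier (45223) or symbol (373), and 476 were not matched. Deposited loci were printed 1-based.

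Libraries were paired by heart group, as the labels give it. Over the tested genes, deviations from the antibody means correlated between the libraries of the same heart group with r = 0.16 (Sham), 0.08 (AngII 4h) and -0.01 (AngII 24h), so the data gave only a weak sign of pairing. Log2 ratios, without a pseudocount, were centred on their median over the tested genes and fitted with limma 3.58.1 (R 4.3.3, variance trend, heart group as block), with Benjamini-Hochberg adjustment over all tested genes. The fit was tested on simulated data. Class shares of FPKM were compared with an exact sign-flip permutation test over 3 pairs.

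Reads were inferred from FPKM with a fragment length of mean 200 nt and SD 80 nt, and 64.7% of 12850 values of transcripts of at least 400 nt, and 59.5% of 1170 of those under 200 nt, were whole to within 0.1 reads, so these numbers are approximate. Exact Clopper-Pearson intervals of read ratios cover counting error only. Shared sequence was found with BLAST+ 2.17.0 on the longest GENCODE transcript of each gene. Calculations used Python 3.11.15, pandas 2.3.3, numpy 2.4.6, scipy 1.17.1 and matplotlib 3.10.9.

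Genes were named by a rule: the first 12 in each direction by their weakest ratio over the 3 pairs, the first 6 likewise among genes neither coding nor pseudogenes, up to 4 of the highest FPKM of each list, and those the study names. Mark2, Fn1, Tln1, Nsf, C3, Stau1, Nexn, Igf2r, Gm38194, Acsl1, Neat1 and Tug1, the members of families and the genes at 0 were added after their values were seen. The comparison, members and gene lists were chosen with earlier results of these data known. Alternatives concerned the filter, pseudocount, scaling, table, transcript length, mitochondrial genes, pairing, variance trend, size of the shift, intervals, and each pair left out. The read minimum, the merging of genes that share sequence and the sums without genes of status HIDATA were chosen after seeing the data. The values and sequence of 1 shifted miRNA gene are not reported here.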

Additional observations from a re-analysis of the deposited data

Results flagged for a closer look

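Several classes and genes had opposite signs of the scaled log2 ratio in different heart groups, with the largest and the smallest value at least 0.5 from 0 for a class or 1 for a named gene. With 1 library per antibody and group these differences were not tested. The class medians in Sham, AngII 4h and AngII 24h were 1.26, 0.50 and -0.80 for snRNA, 0.61, 0.68 and -1.22 for rRNA, 0.60, 1.29 and -0.69 for miRNA, and 0.60, 0.55 and -1.17 for the C/D snoRNAs.

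In the same order, the ratios were 2.46, 1.09 and -2.02 for Snora68, 1.34, 1.97 and -1.44 for Snord15a, 1.65, -0.47 and -1.33 for Snord21, and -0.13, 1.246 and -2.28 for Snora31. Few reads stood behind these snoRNAs. In the AngII 24h anti-EZH2 library about 1 was inferred for Snora68 and Snora31, 3 for Snord15a and 5.51 for Snord21. The coding genes were Suz12 with -1.81, -0.57 and 1.18, Hnrnph1, a splicing factor, with 1.93, -0.33 and -3.86, and Col1a1, a chain of type I collagen, with -0.60, 1.43 and -1.04. Each of these classes and genes except Suz12 had its lowest value in AngII 24h, and Suz12 its highest, where the anti-EZH2 library had the lowest FPKM sum (1066359). The classes named here are counted in that sum, so for them it is not a separate observation. The part of that library in these values was not tested.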

How the results depend on the processing

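For limma the count of adjusted calls was 0 under FPKM above 5, a pseudocount of 1, no division by the median ratio, the median of protein-coding genes, the second table, no mitochondrial genes and no variance trend, and 0 to 0 with each pair left out. It was 2 with a mean FPKM above 1 and 2 without a filter (Gm23991 and Gm17428, both at 0 with IgG), 3 with transcripts of at least 200 nt and 1 with at least 10 reads. Without the replicate block it was 0, so the pairing changed no call. The shifted genes, 102 higher and 41 lower, became 29 and 5 at FPKM above 5, 297 and 168 at a mean FPKM above 1, 566 and 586 without a filter, 77 and 26 with a pseudocount of 1, 52 and 134 without division by the median, 32 and 18 in the second table, 59 and 32 with at least 10 reads and a median over those genes, 199 and 134 where a ratio of 25% above 1, or its inverse, was enough and 44 and 5 at 2-fold. Their balance turned without the median division. With a pair left out there were 246 to 320 higher and 146 to 209 lower. Where the deposited FPKM intervals were apart in every pair, 17 were higher and 54 lower, of which 16 and 1 were among the shifted genes, but these intervals are unscaled and between 6.36% and 10.6% of FPKM fell outside their own interval.

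In the second table medians were 0.20 for lncRNA, 1.69 for miRNA, 0.05 for TEC, 0.44 for mitochondrial tRNA, 0.42 for PRC2 subunits, 1.62 for the PRC2-linked lncRNAs, -0.04 for oxidative phosphorylation and -0.11 for fibroblast markers. At FPKM above 5 they were 1.41 for miRNA, 2.50 for TEC, 0.98 for genes outside GENCODE, 0.12 for splicing factors, 0.32 for endothelial and 0.38 for fibroblast markers. With a pair left out, medians ran from 0.11 to 0.31 for PRC2 subunits, -0.01 to 0.06 for sarcomere genes, 0.02 to 0.08 for calcium handling, -0.29 to 0.17 for histones, -0.18 to 0.03 for immediate early genes and -0.09 to 0.04 for endothelial markers. Of 162 medians 142 moved by less than the SD between pairs, and the median GGGG of non-coding genes higher by 2-fold was 1.56 per kb. The cause of these changes was not tested, and each median covers the genes that passed the minimum of its setting. With the genes of status HIDATA left out of the sums, the exact sign-flip permutation p went from 0.25 to 0.75 for the share of pseudogenes and from 0.75 to 0.25 for misc RNA.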
